A study of Mus musculus with 6 samples.

Results

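The 1708 array probes whose identifiers contain TRF were chosen from the deposited table of normalized intensities by that string alone. They make up 16.0% of the 10690 small RNA probes in that table and 96.7% of the 1767 TRF probes on the array. The other 59 TRF probes were not in the table. Small RNAs of the small intestinal mucosa were measured on 6 one-colour arrays, 1 per mouse: 3 littermates labelled wildtype and 3 Cdr1as-/- mice, all on the C57BL/6J background. Cdr1as is a circular RNA, and its locus had been deleted throughout the animal by CRISPR/Cas9 in 1-cell embryos. More than 1 founder line was made, and the line, age, and sex of the mice on the arrays are not given in the sources used here. Animals of the study were fasted before tissue collection. Total RNA of each sample was dephosphorylated and labelled with Cy3, so any RNA with a free 3′ end, whole or fragment, could carry the dye.

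Neither the files, the labels, nor the study's methods spell out TRF. The field writes tRF for fragments cut from transfer RNA, the adaptor molecules that bring amino acids to the ribosome. Such fragments arise by cleavage near the anticodon or near either end of a tRNA, increase in many tissues under stress, and have been linked to control of translation. Because the files pair no tRNA, position, or sequence with an identifier, no probe is assigned to a tRNA here and no sequence is shown. The array also does not measure the length of the RNA bound to a probe, so an intact RNA and its fragment cannot be told apart. Likewise, in mucosa made of many cell types, fewer cells of a type and less RNA per cell cannot be told apart. All identifiers begin with ASMM10SMR20 and end with TV1, which are left out below.

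Littermate 3 stood apart from the other arrays before any comparison. Over the 1708 TRF probes, the Spearman correlation of its signals with those of littermates 1 and 2 was 0.807 and 0.811, whereas littermates 1 and 2 correlated at 0.993. Its correlation with Cdr1as-/- mouse 1 was 0.907. Probes of an array are not independent, and these values are given as a description. The leading number of the array barcode, read here as the slide, was shared by littermates 1 to 3 and Cdr1as-/- mouse 1. Cdr1as-/- mice 2 and 3 had another, so slide and group overlap in part. Littermate 1 had a scan identifier of its own, and the other arrays shared another across both barcode numbers. The median level of 8 intestinal epithelial miRNAs, miR-194, miR-192, and miR-215 among them, was at percentile 99.6 of the normalized values on 5 arrays and at 94.4 in littermate 3. Other lists stood lower in littermate 3 too: the median percentile of 4 smooth muscle and mesenchymal miRNAs was 52.0 there against 77.0 to 91.9 on the other arrays, that of 2 erythroid miRNAs 42.3 against 66.8 to 86.2, and that of 5 immune cell miRNAs 78.3 against 89.9 to 93.1. The liver miR-122 was at percentile 62.2 to 69.4, and the neuronal miR-124 at 22.0 or lower, on every array. The part of these markers in the TRF results was not tested. Each group result is therefore given with and without littermate 3.

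TRF probes carried most of the small RNA signal. Their share of the summed signal of all 10690 probes was 91.3%, 91.1%, and 58.3% in littermates 1 to 3 and 86.5%, 90.5%, and 90.6% in Cdr1as-/- mice 1 to 3. Littermate 3 was the only array below 86.5%. The share was 80.2% ± 19.0 in littermates and 89.2% ± 2.35 in Cdr1as-/- mice (SD, n = 3 each), and the difference of 8.98 percentage points was smaller than the spread between littermates (exact two-sided permutation test, p = 1, smallest possible p = 0.1). Without littermate 3 the difference was -1.99 percentage points, with all 3 Cdr1as-/- mice below both littermates (exact permutation test, p = 0.2, the smallest possible). The low share of littermate 3 did not come with less TRF signal. Relative to littermate 1, its summed TRF signal was 1.03 and its summed miRNA signal 8.67. In Cdr1as-/- mouse 1 the same ratios were 1.02 and 1.76, and in Cdr1as-/- mouse 3 they were 0.786 and 0.877.

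The signal of single TRF probes spanned a wide range, from 1.02 to 117000 in littermate 2 at the widest and from 23.3 to 114000 in littermate 3 at the narrowest. In littermate 1 the background-subtracted signal, in scanner units, ran from 1.17 to 131000 with a median of 141, and 22.5% of the probes, those at 10000 or more, held 95.1% of the TRF signal. On the other arrays the share of probes at 10000 or more was 22.6% to 26.8%, and these probes held 90.7% to 94.7% of the signal. Except in littermate 3, fewer probes lay between 1000 and 10000 than below 100 or at 10000 or more. In littermate 1, 811 of 1708 probes were below 100, 385 were at 10000 or more, and 225 lay between 1000 and 10000. The same counts in littermate 3 were 148, 458, and 499. Signals of different probes also depend on how well each probe binds, so these are orders of signal and not of RNA amount. No small RNA spot was saturated.

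The median TRF signal was 141, 177, and 1620 in littermates 1 to 3 and 494, 180, and 234 in Cdr1as-/- mice 1 to 3. Littermate 3 had the highest median and Cdr1as-/- mouse 1 the next highest, and the other 4 arrays lay between 141 and 234. The upper quartile differed less, from 6650 in Cdr1as-/- mouse 3 to 11900 in littermate 3. All 1708 probes were well above background, as called by the scanner software, in littermate 3 and in Cdr1as-/- mouse 1, against 92.6% in littermate 1, 98.9% in littermate 2, 78.4% in Cdr1as-/- mouse 2, and 98.1% in Cdr1as-/- mouse 3. In Cdr1as-/- mouse 2, 48 probes shared the lowest value of the array, 3.73, and have no order among themselves. The deposited normalized log2 intensities, whose highest TRF value was 16.82 on each array, gave TRF medians of 8.50, 8.61, and 7.07 in the littermates and 7.98, 8.43, and 8.63 in the Cdr1as-/- mice. On that scale littermate 3 was lowest, the opposite of its place in the scanner signal.

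The TRF signal was spread over many bright probes, with none that dominated. The brightest probe of each array held 0.527% to 0.631% of the TRF signal. It took 108, 116, and 137 probes of littermates 1 to 3 to reach 50% of it, and 130, 110, and 122 of Cdr1as-/- mice 1 to 3. That is 6.32% to 8.02% of the TRF probes, whereas 0.273% to 3.82% of the 8437 miRNA probes held 50% of the miRNA signal. The brightest 10 TRF probes of each array held 5.74%, 5.43%, and 4.94% of the TRF signal in littermates 1 to 3 and 5.03%, 5.69%, and 5.40% in Cdr1as-/- mice 1 to 3. The groups overlapped. Their means were 5.37% ± 0.399 and 5.37% ± 0.333 (SD, n = 3 each, exact permutation test, p = 1), and without littermate 3 the difference was -0.208 percentage points (exact permutation test, p = 0.4).

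Much the same probes were brightest on every array. Of the 100 brightest, 78 were shared by the 5 arrays other than littermate 3 and 56 by all 6. The 10 probes with the highest mean share of the TRF signal each held 0.502% to 0.550% on average. TRF100004722 had signals of 120000, 113000, and 114000 in littermates 1 to 3 and 106000, 116000, and 89900 in Cdr1as-/- mice 1 to 3. TRF100004398 had 120000, 115000, and 107000 in the littermates and 111000, 117000, and 85400 in the Cdr1as-/- mice. Both were among the 7 brightest on every array, and they also had the 2 highest means of the deposited normalized values, 16.73 and 16.75. Only Cdr1as-/- mouse 3 was below 100000 for either. The others were TRF100005324, TRF100000910, TRF100005294, TRF100004654, TRF100004428, TRF100009958, TRF100009274, and TRF100004684. Of these, TRF100009958 had the 46th highest share in littermate 3, at a signal of 82700, and TRF100009274 fell to the same place on another array.

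At the other end, TRF100001670 and TRF100001130 had the lowest normalized means, 2.84 and 2.87, and were well above background on 3 arrays each. TRF100001130 had signals of 2.63, 5.41, and 50.1 in littermates 1 to 3 and 5.80, 3.73, and 1.47 in the Cdr1as-/- mice, so littermate 3 was the only array above 5.80. The deposited table held exactly those TRF probes that were well above background on at least 3 arrays. The 59 TRF probes outside it were above background on 2 arrays or fewer. All 59 were above background in littermate 3, where their median signal was 47.4, and 40 were in Cdr1as-/- mouse 1, with a median of 6.89. None was on the other 4 arrays, where the medians were 1.63 to 3.73.

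The identifier numbers of the TRF probes fell into runs, a feature noticed after their values had been seen and described here without a test. The 1767 probes on the array are numbered from 0 to 10066, 69.4% of steps between neighbours were 4, and steps of 12 or more divided them into 281 runs. Runs of 9 were the most frequent, 72 in all. What a run stands for is not stated in the files. By their medians over these 72 runs, the probes at positions 9 and 5 were bright and those at positions 6 to 8 were dim. The median signals in littermate 1 were 154, 161, 64.8, 786, 9120, 20.1, 12.2, 25.9, and 42000 from position 1 to position 9. In Cdr1as-/- mouse 2 they were 210, 190, 97.8, 679, 7490, 35.8, 16.3, 50.4, and 36000. The probe at position 9 was the brightest of its run in 51.4% to 55.6% of the 72 runs on 5 arrays and in 37.5% in littermate 3. Identifier number did not follow the row of the spot on the array (Spearman correlation 0.007 over 1767 probes).

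Of the 10 brightest probes named above, 3 lie in runs of 9, and these runs are shown as examples. In the run ending in TRF100004398, the signals in littermate 1 were 42.6, 238, 62.9, 4990, 12200, 36.3, 9.93, 49.5, and 120000 in order of identifier. In the run ending in TRF100005294 they were 24.9, 509, 115, 5560, 54900, 114, 47.2, 35.4, and 118000. Both have high signals at positions 4, 5, and 9. The run from TRF100009274 to TRF100009306 had another profile, with 119000, 106000, 12.1, 90.2, 20.9, 46.3, 26.1, 8.32, and 85100 in littermate 1, bright at positions 1, 2, and 9 and dim at positions 4 and 5. In littermate 3 the run ending in TRF100004398 read 1710, 12600, 2710, 2020, 3340, 2000, 125, 2390, and 107000. All 6 dim probes were brighter than in littermate 1, the probes at positions 4 and 5 were lower, and the probe at position 9 differed little. Cdr1as-/- mouse 1 lay between, at 422, 3400, 631, 3180, 8470, 339, 17.9, 388, and 111000. The steady last probe of this run was not general. Over the 72 runs, the median at position 9 was 42000 in littermate 1 and 12300 in littermate 3, and that at position 5 was 9120 and 2400.

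Over the 72 runs of 9, the median log2 difference between the probe at position 9 and the mean of positions 6 to 8 was 9.38, 8.94, and 3.28 in littermates 1 to 3 and 6.69, 8.70, and 8.03 in Cdr1as-/- mice 1 to 3. Being a difference within an array, it does not depend on scaling. Littermate 3 was lowest and Cdr1as-/- mouse 1 next, and the groups overlapped. The means were 7.20 ± 3.40 and 7.81 ± 1.02 (SD, n = 3 each). The positions were picked after their values had been seen, so no test of the difference is given. Without littermate 3 all 3 Cdr1as-/- mice lay below both littermates, and the nearest values of the 2 groups were 8.70 in Cdr1as-/- mouse 2 and 8.94 in littermate 2.

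Dim probes differed between arrays far more than bright ones. With the 1708 probes divided into quartiles of 427 by their mean log2 signal over all 6 arrays, the brightest quartile had median signals of 35900, 39800, and 34000 in littermates 1 to 3 and 40700, 36600, and 31300 in Cdr1as-/- mice 1 to 3. In the second dimmest quartile they were 36.8, 47.9, and 936 across littermates 1 to 3, against 179, 54.3, and 66.0 across Cdr1as-/- mice 1 to 3. Before scaling, the median log2 difference of littermate 3 from the mean of littermates 1 and 2 was 4.20, 4.97, 2.05, and -0.56 from the dimmest to the brightest quartile. For Cdr1as-/- mouse 1 it was 1.48, 2.30, 1.08, and -0.14, for mouse 2 it was 0.24, 0.31, 0.00, and -0.04, and for mouse 3 it was 0.28, 0.76, 0.49, and -0.52. Littermate 2 differed from littermate 1 by 0.34, 0.29, 0.13, and -0.05. In littermate 3, 1016 of 1708 probes were at least 4-fold above the mean of littermates 1 and 2 and 108 at least 4-fold below. In Cdr1as-/- mouse 1 the counts were 481 and 1, in mouse 2 they were 0 and 1, and in mouse 3 they were 46 and 1.

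Whether loss of Cdr1as changed single TRF probes was tested with limma on log2 signals, scaled by subtracting the upper quartile of each array over probes detected on all arrays. The adjustment covered the 8380 small RNA probes of every class that were well above background on each array of at least 1 group. Of the 1708 TRF probes, 1578 entered, and the 130 left out were all below that call in Cdr1as-/- mouse 2. No TRF probe passed an adjusted p of 0.05 with all 6 arrays, where 0% of all tested probes did, and none without littermate 3, where again 0% did. With all 6 arrays, 5 TRF probes had an unadjusted p below 0.05 and higher values in Cdr1as-/- mice and 1 had lower values, 0.317% and 0.0634% of those tested. Over all tested probes the shares were 0.0835% higher and 0.203% lower. Without littermate 3, 27 TRF probes (1.71%) were higher and 494 (31.3%) lower, against 1.41% and 14.7% of all tested probes. The smallest adjusted p was then 0.308 in limma with Benjamini-Hochberg adjustment. The methods' t-test gave 10 higher and 22 lower of 1578 TRF probes at that unadjusted level, against 182 and 337 of all 8380 tested. Once adjusted, it gave 0 TRF probes. In limma with an intensity trend, 39 TRF probes were higher and 228 lower at that level, against 203 and 1194 of all tested. The excess of lower TRF probes over all tested probes thus depended on the test.

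The direction of the class depended on littermate 3 and on the scaling. With all 6 arrays the median log2 fold change of the tested TRF probes, Cdr1as-/- over littermate, was 0.30, against -0.14 for all tested probes. Without littermate 3 it was -0.39, against -0.13. The sign differed between these fits for 912 of 1578 probes (57.8%). The quartile that set the scale was a signal of 171, 201, and 4037.5 in littermates 1 to 3 and 771, 224, and 256 in Cdr1as-/- mice 1 to 3. That of the TRF probes detected on all arrays was 14600 to 19700 on all 6. Scaled to the TRF probes instead, the medians were -0.16 with all arrays and 0.60 without littermate 3, and in the latter fit 143 TRF probes (9.06%) were higher and 0 lower at an unadjusted p below 0.05, against 13.6% and 0.0239% of all tested probes. Neither scaling gave an adjusted call, and 23 TRF probes had an unadjusted p below 0.05 in both fits without littermate 3. The matching count over all tested probes is not given here, so the 23 are not read as a trait of the TRF class. The deposited normalized values gave medians of 0.17 and -0.03.

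The difference also varied with signal level. Without littermate 3, the median log2 fold change from the dimmest to the brightest quartile was -0.36, 0.30, -0.33, and -1.17, and 255 of the 494 lower probes lay in the brightest quartile. Scaled to the TRF probes, the same medians were 0.63, 1.29, 0.66, and -0.18, and the 143 higher probes were divided 33, 84, 25, and 1. Without littermate 3, the second dimmest quartile was thus highest relative to the others and the brightest quartile lowest. With all 6 arrays the medians were -0.25, 0.06, 0.46, and 0.56, and -0.71, -0.40, -0.01, and 0.10 scaled to the TRF probes. The brightest quartile was then highest and the dimmest lowest, so the pattern turned with littermate 3. A change of scale moves all probes of an array by the same amount, so the order of the quartiles had to be the same on both scales.

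The number of calls rested on single arrays. Without Cdr1as-/- mouse 2 as well as littermate 3, 578 TRF probes (36.6%) passed the adjusted threshold, 546 of them lower, where 21.0% of all tested probes passed. With the slide as a block, which leaves Cdr1as-/- mouse 1 against littermates 1 and 2 within their shared slide, 721 (45.7%) passed, 669 of them lower, where 32.0% of all tested probes passed. Leaving out any other array of these 5 gave 0. In both of these fits Cdr1as-/- mouse 1, whose dim probes were bright as described above, carries more weight, and the part of that in the counts was not tested. With littermate 3 included, the slide block gave 0 TRF calls and a median of -0.30.

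The TRF probes with the smallest unadjusted p among those higher in Cdr1as-/- mice were led by mouse 1. TRF100002926 had signals of 386, 349, and 12100 in littermates 1 to 3 and 10200, 987, and 1330 in Cdr1as-/- mice 1 to 3. TRF100002882 had 102, 99.5, and 3920 in the littermates and 3630, 279, and 343 in the Cdr1as-/- mice. TRF100002970 had 474, 476, and 10800 and then 10300, 1030, and 1690. In all 3, littermate 3 and Cdr1as-/- mouse 1 were close to each other and far above the remaining arrays, and Cdr1as-/- mice 2 and 3 were 2 to 4 times as high as littermates 1 and 2. Each is the second probe of its run, and their numbers are 44 apart. Without littermate 3, their log2 fold changes were 1.76 ± 0.49, 1.87 ± 0.54, and 1.53 ± 0.47 (SE, n = 2 and 3), with limma adjusted p = 0.308 for each. With all 6 arrays they were 1.56 ± 0.56, 1.59 ± 0.64, and 1.51 ± 0.51 (SE, n = 3 each), with an adjusted p of 1 in limma. Scaled to the TRF probes they remained positive, at 1.10, 1.13, and 1.05 with all arrays and 2.75, 2.86, and 2.52 without littermate 3. The unadjusted limma p on that scaling was 0.53, 0.542, and 0.519 with all arrays. Without littermate 3 it was 0.0188, 0.0244, and 0.0231.

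TRF100009506 had signals of 18.2, 46.7, and 400 in the littermates and 783, 67.4, and 110 in the Cdr1as-/- mice, with log2 fold changes of 1.91 ± 0.62 with all 6 arrays and 1.69 ± 0.53 without littermate 3. TRF100009558 had 7.44, 16.1, and 159 and then 197, 22.9, and 33.1, with 1.54 ± 0.54 with all 6 arrays. For both, Cdr1as-/- mouse 1 was the highest array and littermate 3 the next. TRF100004218, named without littermate 3 (1.64 ± 0.54), had 626 and 331 in littermates 1 and 2, 8540, 809, and 2860 in the Cdr1as-/- mice, and 28500 in littermate 3. None passed adjustment in limma, with an adjusted p of 0.308 without littermate 3 for TRF100009506 and TRF100004218.

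Among the probes lower in Cdr1as-/- mice, TRF100000756 was the brightest of those named. Its signals were 3560, 4130, and 784 in littermates 1 to 3 and 2920, 2880, and 1460 in Cdr1as-/- mice 1 to 3. All 3 Cdr1as-/- mice were below littermates 1 and 2, with littermate 3 lower still. Its log2 fold change came to -1.66 ± 0.50 (SE) without littermate 3 and to 0.58 ± 1.76 with all arrays. TRF100002758, a run of its own, had 446, 388, and 165 in the littermates and 261, 301, and 157 in the Cdr1as-/- mice, with -1.78 ± 0.52 without littermate 3 and 0.15 ± 1.55 with all arrays. On this scaling the sign of both fold changes turned with littermate 3. Scaled to the TRF probes, the fold changes without littermate 3 were smaller, -0.67 and -0.79. With all arrays they were then 0.12 for TRF100000756 and -0.32 for TRF100002758, so for TRF100002758 the sign depended on the scaling as well.

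The remaining lower probes were dim on the arrays other than littermate 3. In littermate 3, all of them but TRF100006758 and TRF100007142 were dim too, below that array's lower TRF quartile of 270. TRF100006082, named in both comparisons, had 12.3, 9.77, and 113 in the littermates and 16.2, 5.37, and 6.54 in the Cdr1as-/- mice, with log2 fold changes of -0.98 ± 0.49 with all 6 arrays and -1.34 ± 0.40 without littermate 3. TRF100004526 had 6.39, 5.73, and 105 and then 11.3, 3.73, and 3.25, and was above background on 4 arrays, with -1.05 ± 0.41 with all 6 arrays. In unscaled signal, Cdr1as-/- mouse 1 was above littermates 1 and 2 for both. TRF100006758 had 56, 64.9, and 2710 in the littermates and 176, 54.2, and 55 in the Cdr1as-/- mice. TRF100007142 had 49.6, 43.6, and 1460 and then 102, 45.2, and 34.4. Scaled to the TRF probes without littermate 3, their log2 fold changes were 0.48 and 0.28. TRF100005662, TRF100007142, and TRF100006758 (all 6 arrays) had fold changes of -0.77 to -0.89, and TRF100003830 and TRF100001955 (without littermate 3) of -1.34 and -1.43. None of these 7 had an adjusted limma p under 0.308. TRF100006082, TRF100004526, TRF100005662, TRF100003830, and TRF100001955 were not above background in Cdr1as-/- mouse 2, nor TRF100004526 in mouse 3. All 3 littermates were above background for them, so they entered the test only through the group in which they were higher. Their lower values are therefore not read as a decrease. With the floor described below and without littermate 3, TRF100006082, TRF100003830, and TRF100001955 had log2 fold changes of 0.00.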

How the data were processed

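The scanner output, per the labels from Agilent Feature Extraction 11.0.1.1, holds background-subtracted intensity per spot, deposited without normalization between arrays. The authors also deposited normalized log2 intensities, whose normalization is not given in the sources used here. Columns of the authors' own comparison (fold changes, p-values, q-values) were not used.

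Signals were log2 transformed, outlier-flagged spots left out (2 TRF spots), and arrays scaled by subtracting their 75th percentile, taken over 5555 probes that the scanner software called well above background throughout. Groups followed the labels. The limma package 3.58.1 (R 4.3.3), tested on simulated data, was used to fit differences, with Benjamini-Hochberg adjustment, and shares were compared by exact permutation. Summaries used Python 3.11.15, NumPy 2.4.6, and pandas 2.3.3. The number of arrays limits the precision.

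Probes named were the 10 with the highest mean share of TRF signal, the 5 higher and 5 lower with the smallest limma p, with and without littermate 3, and the 2 highest and 2 lowest normalized means. Members, lists, and tests were chosen with earlier results of these data known. Alternatives covered scaling, background, filter, floor, test, blocks, and omission of each array.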

Additional observations from a re-analysis of the deposited data

How the results depend on the processing

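No TRF probe was called with all 6 arrays under any alternative run (scaling, deposited normalized values, normexp, filters, floor, limma with an intensity trend, the methods' t-test, blocks, or an array left out). Without littermate 3, 3 of 1578 TRF probes were called with a floor at the lowest signal well above background, against 35 of all 8380 tested. With the slide as a block 721 (45.7%) were called, against 32.0% of all tested. Leaving out 1 Cdr1as-/- mouse gave 0 or 578, the latter without replicate 2 (36.6%, against 21.0% of all tested). The cause was not tested. The median log2 fold change with all arrays ranged from -0.39 to 0.67 when an array was left out, negative only without littermate 3. Without littermate 3 it ranged from -0.61 to -0.16 when a further array was left out, was 0.60 scaled to the TRF probes, -0.03 by quantile normalization and by the deposited normalized values, and -0.95 with the slide as a block. The difference in the share of the 10 brightest probes, 0.00528 percentage points, became -0.325 with the deposited normalized values, -0.00117 without background subtraction, and -0.0329 for the 50 brightest, and lay between -0.208 and 0.188 when an array was left out. That in the TRF share of small RNA signal lay between -1.99 and 14.5, negative only without littermate 3. With all arrays and normexp, TRF100004526, TRF100006082, and TRF100005662 had log2 fold changes of 0.22, 0.23, and 0.16. Signals near background limit the dim probes.

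The replicate numbers were not taken to pair the mice: same-numbered samples' deviations over the TRF probes correlated at -0.838, 0.654, and -0.0871. With the replicate block, 0 TRF probes were called in either set, the median log2 fold change was 0.30 with all arrays and -0.61 without littermate 3, and the differences in share were 0.00528 and 8.98 percentage points.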
